A study of Mus musculus with 31 samples.

Results

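Gene expression was compared between colons without and with the kinase TAK1 in intestinal epithelial cells. Of the 31 RNA-sequencing libraries of the series, the 21 with the genotypes HO and WT were used, as the labels name them, all from whole colon at 7 days post induction. The HO group (n = 10) is TAK1 IEC-KO, that is, mice whose intestinal epithelial cells (IEC) lost TAK1. The WT group (n = 11) is Tak1f/f, with floxed alleles left intact. Both groups carry Ripk1 D138N on both copies, which leaves RIPK1 without kinase activity, so neither group is wild type at Ripk1. The 10 libraries with an added loss of Tradd (DHO) entered only the filter that chose the genes tested and the estimate of the spread. The sources used here do not give the driver of the deletion, the inducing agent, or the age and sex of the mice. They also do not say whether each library is a separate animal, and the p-values therefore rest on the spread among libraries, which may be technical.

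TAK1, encoded by Map3k7, is a kinase that joins receptors for TNF, interleukin 1 and microbial products to the IKK complex, which releases the transcription factor NF-kB, and to the kinases of the JNK and p38 pathways. NF-kB switches on survival genes, inflammatory genes and its own inhibitors, such as Nfkbia (IkB alpha) and Tnfaip3 (A20). Without TAK1, TNF can turn from a survival signal into a death signal, through caspase-8 or through the kinases RIPK1 and RIPK3. In the colon the epithelium is a single layer that absorbs salt and water, makes mucus and keeps bacteria apart from the tissue below.

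Expression is given as FPKM, fragments scaled to the length of the gene and to the depth of the library, so values of different genes can be set side by side per length. Fold changes are HO over WT on the scale of log2(FPKM + 0.5), given with the SE, and adjusted p-values are from limma with Benjamini-Hochberg adjustment over all genes tested. Depth was recovered from the values and lay between 30800000 and 40400000 fragments per library. It averaged 35900000 ± 3982180 fragments in HO (SD, n = 10) and 37581800 ± 2372260 in WT (n = 11; two-sided permutation test, p = 0.247, adjusted over 3 tests 0.247). The 10 most abundant genes took 20.9% ± 4.12 of the summed FPKM in HO and 12.4% ± 2.67 in WT (permutation p = 8e-05, adjusted p = 0.00024). At least 1 FPKM was reached by 11748 ± 309 genes in HO and 11961 ± 218 in WT (permutation p = 0.0829, adjusted p = 0.124).

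Some libraries stood apart. HO replicate 2 kept some epithelial transcripts near the WT level and not others. The brush border gene Vil1 was at 179 FPKM in it, at most 22.9 FPKM in the other 9 HO libraries and 163 to 210.4 FPKM in WT. The exchanger Slc26a3 was at 14.2 FPKM in it, at most 0.347 FPKM in the other 9 and 240.3 to 584 FPKM in WT. It lay below all WT libraries in 1 of 5 simple keratins, 6 of 8 secreted mucus genes and 11 of 12 apical exchangers and channels. The same library had 0 FPKM of Hoxb13 and Hoxd13, which mark the distal gut, and 17.5 FPKM of Hoxb6, against at most 3.05 in the other HO libraries and 1.24 in WT. It also held 8461 FPKM of the antimicrobial lectin Reg3b, which was at most 3.42 FPKM in the other HO libraries and 3.02 FPKM in WT. The intestinal homeobox gene Isx was at 54 FPKM in it and at most 0.355 FPKM in WT. The bile acid exporter subunits Slc51a and Slc51b were at 32 and 343 FPKM in it and at most 0.0583 and 30.7 FPKM in WT, and Alpi, intestinal alkaline phosphatase, at 4.62 FPKM in it and at most 0.198 FPKM in WT. Without it the counts of called genes changed in 20 of the 99 roles into which the gene lists below are divided, by at most 2 genes in a role, and values without it are given beside the results it moves most. Another division crossed the genotypes: the noncoding RNA Gm15564 was at 0 to 0.0736 FPKM in 5 HO and 6 WT libraries and at 6.27 to 14.5 FPKM in 5 HO and 5 WT libraries. The labels name no batch.

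The tissue label was read against markers of colon and of neighbouring tissues. In WT the colonic genes Car1, Aqp8 and Slc26a3 were at 378 to 1673, 243 to 862 and 240.3 to 584 FPKM. The 8 genes listed for small intestine summed to 3.52 to 19.5 FPKM in HO and 42 to 106 FPKM in WT. Most of the WT sum was Rbp2, a retinol-binding protein, at 40.6 to 98 FPKM in WT, while Lct, Apoa4 and Defa24 were at no more than 0.13, 1.3 and 0.658 FPKM there. In HO without replicate 2 the colonic genes reached at most 25, 0.239 and 0.347 FPKM, so the label of colon could not be read from them there. Krt5, of squamous epithelium, reached at most 0.301 FPKM in HO and 0.284 FPKM in WT, and Adipoq, of fat, at most 3.3 FPKM in HO and 1.04 FPKM in WT.

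**Figure D1:**
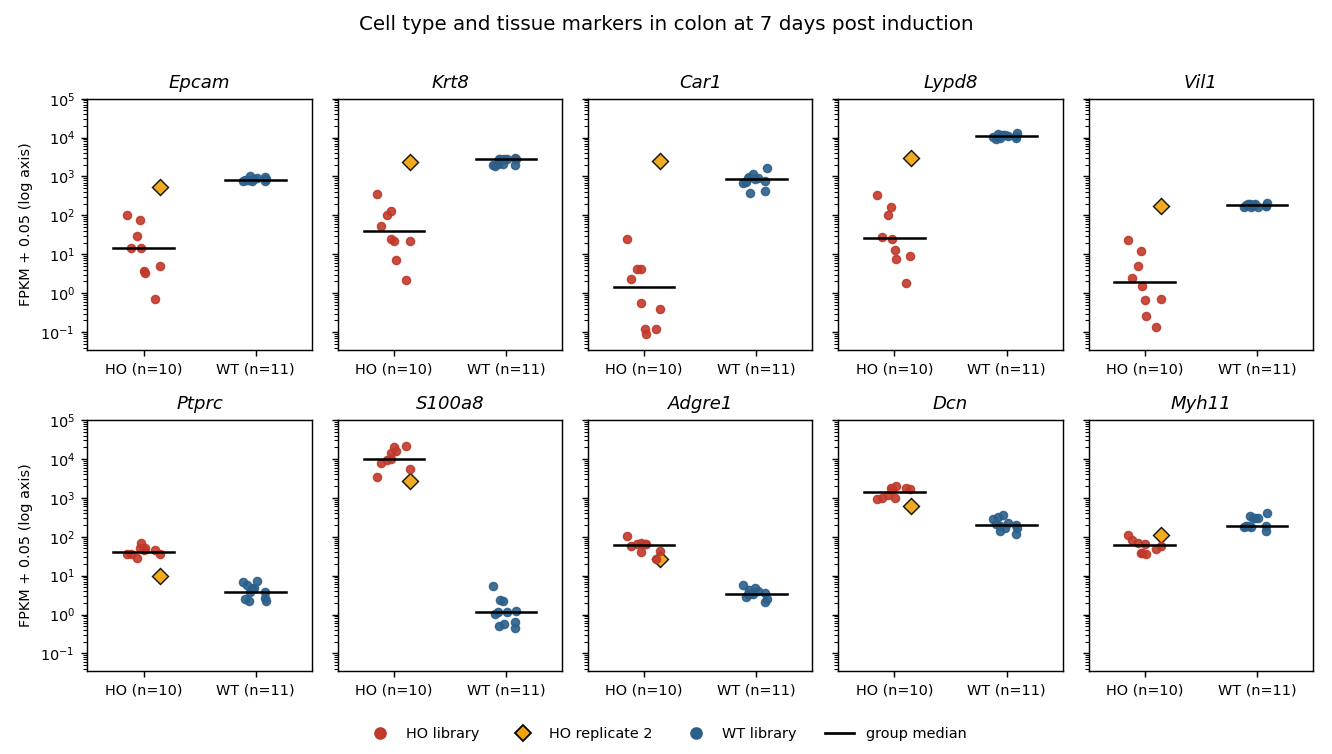
FPKM in each library on a log axis (0.05 added so that 0 can be drawn) for 10 markers, with HO left and WT right in each panel. Each point is 1 library, the line is the group median, and the diamond is HO replicate 2. Epithelial markers (Epcam, Krt8, Car1, Lypd8, Vil1) were low in 9 HO libraries and higher in HO replicate 2; the leukocyte markers Ptprc, S100a8 and Adgre1 were higher in all 10 HO libraries than in any WT library.

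Most of the transcriptome differed. Of 12812 genes tested, 4232 (33%) were higher in HO and 4916 (38.4%) were lower, and 9148 (71.4%) were called in all (limma, adjusted p under 0.05). A change of at least 2-fold was called higher for 2000 genes and lower for 2295, and a change of at least 16-fold for 253 and 343. For 2063 genes (16.1%) every HO library lay above every WT library, and for 2040 (15.9%) below, in all 4103 (32%). Without HO replicate 2, 2327 genes lay wholly above and 2708 wholly below. At the other end, 3033 genes had a 95% interval of the fold change within 0.5 of 0 on the log2 scale. Of the genes tested, 370 were under 1 FPKM in every WT library and 450 in every HO library. Such genes passed the filter (at least 1 FPKM in 10 of the 31 libraries) only through other groups, so their calls carry little information on a list. With 71.4% of all genes called, a call for a single gene is common, so the size of the change and the overlap of the groups carry more information. The median gene had a log2 fold change of -0.06. Rescaling each library to the same sum moved that median to -0.19, a shift of -0.12, so that calls on changes of this size depend on the scaling; 38.6% of called genes were then higher, against 46.3% before. Within the low and the high Gm15564 set, 8901 and 8608 genes were called. The effect of genotype was called different between the sets for 0 genes (limma interaction term; 377 at an unadjusted p under 0.05).

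The genes that carry the TAK1 signal were read first. Map3k7 itself had 11.6 to 16.9 FPKM in HO (median 13.6), against 8.29 to 13.6 FPKM in WT (median 10.4), a log2 fold change of 0.35 ± 0.103 (adjusted p = 0.00362). The groups overlapped, and the rescaled values no longer called the difference. A gene-level value from whole colon counts fragments of undeleted exons and of all other cells, so it does not measure the deletion. Of its binding partners, Tab2 was higher, with 10.7 to 15.2 FPKM in HO (median 12.6), against 7.58 to 13.2 FPKM in WT (median 9.27), a log2 fold change of 0.402 ± 0.131 (adjusted p = 0.00737), a call also lost in the rescaled values, and Tab1 was lower, with 3.28 to 7.52 FPKM in HO (median 5.06), against 6.48 to 12.1 FPKM in WT (median 9.28), a log2 fold change of -0.74 ± 0.199 (adjusted p = 0.0015). Within each Gm15564 set, where fewer libraries are compared, Tab1 was lower in all HO libraries than in any WT library. Tab2 was higher in all HO libraries of the low set and overlapped in the high set. In such bulk tissue, fewer cells of a type and less RNA per cell cannot be told apart.

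In the TNF receptor complex, 8 of 11 genes were higher and 1 was lower, against 33% and 38.4% of all genes. The main TNF receptor gene Tnfrsf1a had 131 to 209 FPKM in HO (median 158), against 38.3 to 56.5 FPKM in WT (median 45.7), a log2 fold change of 1.82 ± 0.149 (adjusted p = 4.11e-12), and the groups did not overlap. Tnfrsf1b, the other TNF receptor, found mainly on leukocytes, moved further, with 41.7 to 145 FPKM in HO (median 86.3), against 3.72 to 7.32 FPKM in WT (median 5.19), a log2 fold change of 3.87 ± 0.265 (adjusted p = 9.20e-14). The exception was the adaptor Tradd, which had 12.4 to 59.2 FPKM in HO (median 21), against 45.9 to 97.5 FPKM in WT (median 89.1), a log2 fold change of -1.75 ± 0.223 (adjusted p = 3.04e-08). Its highest HO value was the 59.2 FPKM of HO replicate 2, and the other 9 HO libraries reached at most 25.4 FPKM, below all WT libraries. Within each Gm15564 set, where fewer libraries are compared, all HO libraries lay below all WT libraries for Tradd, replicate 2 included. Ripk1 had 4.05 to 5.31 FPKM in HO (median 4.43), against 3.1 to 3.76 FPKM in WT (median 3.31), a log2 fold change of 0.39 ± 0.0782 (adjusted p = 6.04e-05), all HO libraries above all WT libraries. Of the IKK subunits, Ikbkb was higher, with 14.6 to 20.2 FPKM in HO (median 16.4), against 7.95 to 11.5 FPKM in WT (median 9.15), a log2 fold change of 0.81 ± 0.0998 (adjusted p = 1.57e-08). Chuk, another subunit, was slightly lower (log2 fold change -0.31 ± 0.095, adjusted p = 0.00411), and not called in the low Gm15564 set alone.

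NF-kB subunits and inhibitors rose together. Of the 5 subunit genes, 4 were higher, all without overlap of the groups, and Relb did not pass the test. By gene, Rela had 30.03 to 48.2 FPKM in HO (median 42), against 12.5 to 23 FPKM in WT (median 17.4), a log2 fold change of 1.24 ± 0.124 (adjusted p = 2.38e-10). Nfkb1 had 27.4 to 49.8 FPKM in HO (median 36.1), against 13.2 to 19.5 FPKM in WT (median 16.1), a log2 fold change of 1.13 ± 0.154 (adjusted p = 1.10e-07). Of the 9 inhibitors of the pathway, 8 were higher (median 1.67), 7 of them without overlap, where 16.1% of all genes lay wholly above. Nfkbia, the inhibitor that holds NF-kB in the cytosol, had 234 to 495 FPKM in HO (median 344), against 33.5 to 58.8 FPKM in WT (median 43.5), a log2 fold change of 2.996 ± 0.22 (adjusted p = 4.03e-13). Tnfaip3, the A20 enzyme that ends the signal, had 37.4 to 103 FPKM in HO (median 71.1), against 7.85 to 20.9 FPKM in WT (median 12.6), a log2 fold change of 2.38 ± 0.26 (adjusted p = 1.51e-09). HO replicate 2 had the lowest HO value of both genes (234 and 37.4 FPKM) and still lay above all WT libraries. Leukocyte transcripts moved with these genes: summed over the 27 neutrophil genes listed, the level was 10316 to 60525 FPKM in HO and 388 to 632 FPKM in WT, and over the 22 monocyte and macrophage genes 1401 to 3041 FPKM in HO and 106 to 183 FPKM in WT. Their part in the change was not tested.

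**Figure D2:**
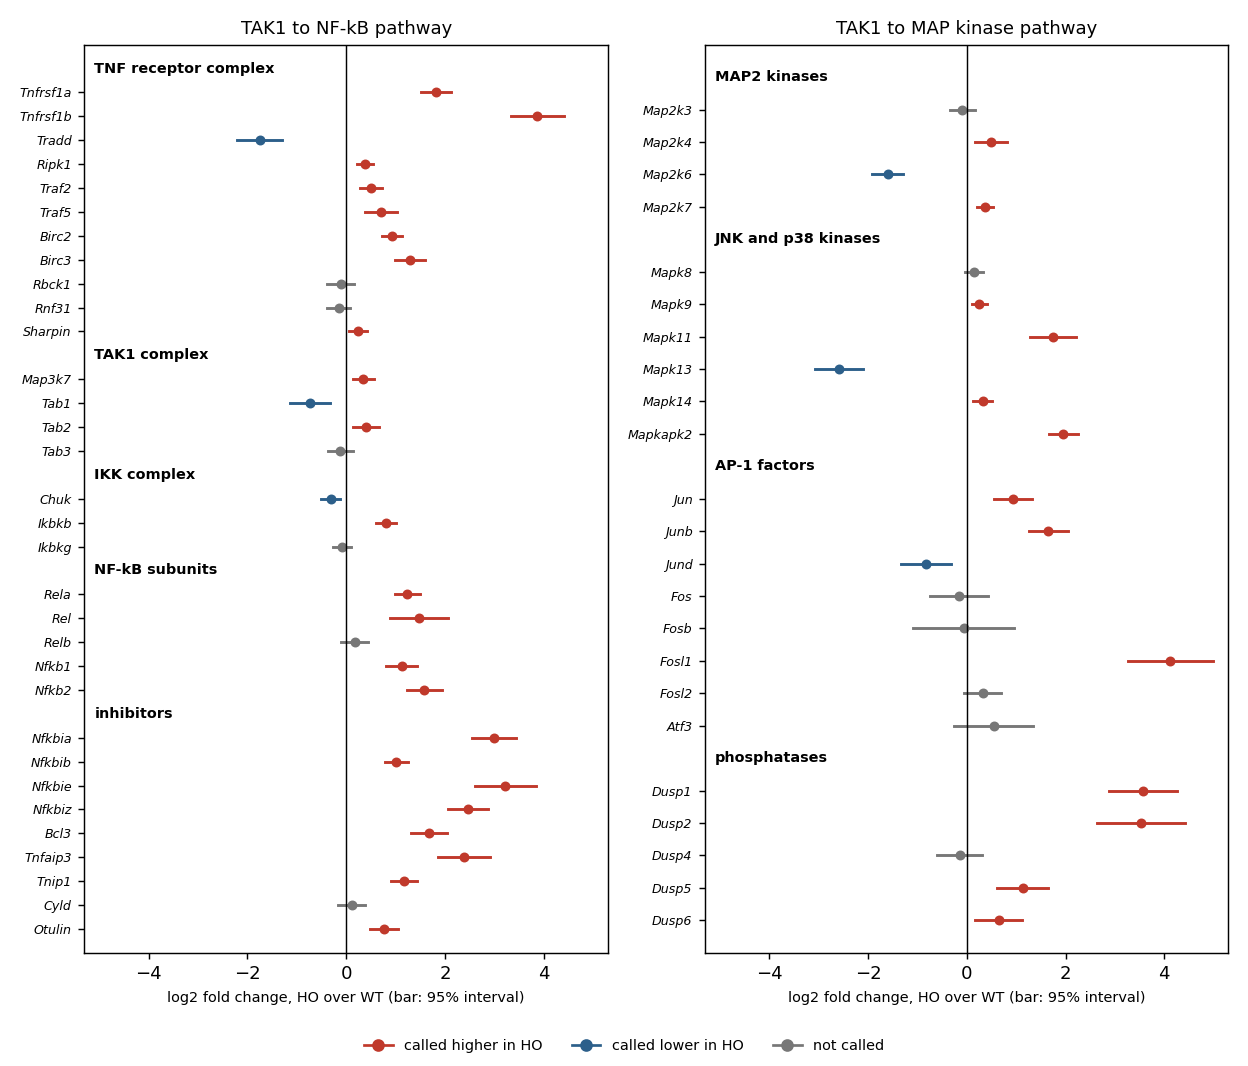
Log2 fold change, HO over WT, with its 95% interval for each tested gene of the TAK1 pathways, grouped by role; red was called higher in HO, blue lower and grey not called. Inhibitors and subunits of NF-kB lie to the right, with Nfkbia at 2.996, while Tradd (-1.75), Map2k6 (-1.604) and Mapk13 (-2.59) lie to the left.

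The 250 bases before the start of transcription are given for 3 neutrophil chemokines and 2 NF-kB inhibitors that were higher in HO, from RefSeq (GRCm38.p6), on the strand of the gene and 5′ to 3′. These genes were picked by hand and do not stand for all genes that rose. Capitals mark matches on either strand to the NF-kB consensus motif. Cxcl1 (chr5:90890995-90891244, plus strand), Cxcl2 (chr5:90903649-90903898, plus), Cxcl3 (chr5:90785851-90786100, plus), Nfkbia (chr12:55492648-55492897, minus) and Tnfaip3 (chr10:19015411-19015660, minus) read as follows.
Cxcl1: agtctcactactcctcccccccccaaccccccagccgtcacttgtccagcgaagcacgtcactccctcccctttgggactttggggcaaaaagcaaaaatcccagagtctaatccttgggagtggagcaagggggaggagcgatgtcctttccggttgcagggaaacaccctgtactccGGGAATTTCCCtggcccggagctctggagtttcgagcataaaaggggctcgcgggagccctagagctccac
Cxcl2: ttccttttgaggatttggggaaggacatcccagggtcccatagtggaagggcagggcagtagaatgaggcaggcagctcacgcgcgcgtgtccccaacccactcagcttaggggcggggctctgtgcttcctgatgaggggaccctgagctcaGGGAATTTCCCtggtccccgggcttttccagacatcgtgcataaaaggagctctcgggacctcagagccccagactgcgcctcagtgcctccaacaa
Cxcl3: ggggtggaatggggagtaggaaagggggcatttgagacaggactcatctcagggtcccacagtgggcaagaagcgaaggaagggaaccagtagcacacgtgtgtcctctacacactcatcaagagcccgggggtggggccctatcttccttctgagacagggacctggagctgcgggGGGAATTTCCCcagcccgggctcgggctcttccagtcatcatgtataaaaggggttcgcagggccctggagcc
Nfkbia: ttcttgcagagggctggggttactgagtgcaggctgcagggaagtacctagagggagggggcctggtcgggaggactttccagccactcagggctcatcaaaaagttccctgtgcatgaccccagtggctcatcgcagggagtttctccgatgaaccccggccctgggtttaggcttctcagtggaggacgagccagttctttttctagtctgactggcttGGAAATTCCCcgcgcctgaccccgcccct
Tnfaip3: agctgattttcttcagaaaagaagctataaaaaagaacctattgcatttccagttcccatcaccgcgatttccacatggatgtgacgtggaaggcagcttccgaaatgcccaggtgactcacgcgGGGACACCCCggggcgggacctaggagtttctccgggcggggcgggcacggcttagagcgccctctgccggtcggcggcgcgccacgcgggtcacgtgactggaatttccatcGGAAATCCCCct
The 3 chemokine promoters hold the same stretch of 11 bases, GGGAATTTCCC, in which a match on each strand overlaps the other. It begins 71, 97 and 73 bases before the start in Cxcl1, Cxcl2 and Cxcl3. Nfkbia has 1 match of 10 bases, 29 bases before the start, and Tnfaip3 has 2, at 125 and 12 bases. Where a gene had several promoters, the one with the most matches was kept, so a share depends on the promoters per gene. Of genes with a promoter, a match was found for 5 of 8 inhibitors, 2 of 3 NF-kB subunits and 3 of 6 CXC chemokines. It was found for 2 of 8 CC chemokines, 0 of 7 apical exchangers and channels and 0 of 4 secreted mucus genes. The share was 4.46% over all 27025 genes with a promoter and 5.54% over the 10239 tested. The part of the motif in the changes was not tested. A match is a description of the letters and not a measured binding site.

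Upstream of TAK1, ligands and receptors of the TNF family and the Toll-like receptors rose as well. Of the TNF family, 5 of 7 ligands (6 without HO replicate 2) and 8 of 9 receptors were higher. Under 1 FPKM in every WT library were 2 of the 7 ligands and 1 of the 9 receptors. Ltb, which with its receptor organises lymphoid tissue, had 4.58 to 33.3 FPKM in HO (median 11.7), against 0.905 to 18.8 FPKM in WT (median 5.44), a log2 fold change of 1.204 ± 0.401 (adjusted p = 0.00854), and the receptor Ltbr had 45.7 to 87.4 FPKM in HO (median 65.1), against 36.3 to 64 FPKM in WT (median 49.5), a log2 fold change of 0.42 ± 0.108 (adjusted p = 0.000859). In the low Gm15564 set alone, neither Ltb nor the ligand Tnfsf10 was called. Tnfrsf12a, the receptor of TWEAK, had 26.4 to 105 FPKM in HO (median 48.5), against 6.29 to 32.2 FPKM in WT (median 15.1), a log2 fold change of 1.89 ± 0.346 (adjusted p = 1.45e-05). Tnfsf10, the death ligand TRAIL, went against its group, with 0.634 to 3.42 FPKM in HO (median 1.45), against 1.8 to 4.93 FPKM in WT (median 2.56), a log2 fold change of -0.78 ± 0.264 (adjusted p = 0.0095), and so did the receptor Tnfrsf21, with 5.97 to 19.5 FPKM in HO (median 9.73), against 19.3 to 26.8 FPKM in WT (median 23.4), a log2 fold change of -1.11 ± 0.145 (adjusted p = 4.85e-08). Among 12 microbial receptors, 10 were higher and 2 lower, against 33% and 38.4% of all genes. Of the 12, 4 were under 1 FPKM in every WT library, so they passed the filter only through other libraries. Tlr2, which senses bacterial lipoproteins, had 19.8 to 81.2 FPKM in HO (median 46.6), against 2.75 to 5.78 FPKM in WT (median 3.8), a log2 fold change of 3.38 ± 0.245 (adjusted p = 3.10e-13). Tlr1, which pairs with it, had 6.47 to 16.6 FPKM in HO (median 9.82), against 19.3 to 33.5 FPKM in WT (median 25.5), a log2 fold change of -1.28 ± 0.147 (adjusted p = 3.95e-09). Of 9 adaptors and kinases, 7 were higher; Myd88, the adaptor most of these receptors share, had 60.2 to 104 FPKM in HO (median 82), against 15.7 to 22.5 FPKM in WT (median 20.2), a log2 fold change of 2.03 ± 0.162 (adjusted p = 2.26e-12). Irak3, a brake of the pathway in macrophages, had 21.6 to 80.1 FPKM in HO (median 57.7), against 1.01 to 2.1 FPKM in WT (median 1.33), a log2 fold change of 4.83 ± 0.302 (adjusted p = 1.59e-14).

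Along the other arm of TAK1, the MAP kinase genes split. Mapkapk2, a kinase that p38 activates and that stabilises cytokine RNAs, had 97 to 218 FPKM in HO (median 136), against 28.3 to 47.5 FPKM in WT (median 38), a log2 fold change of 1.95 ± 0.144 (adjusted p = 4.10e-13), with no overlap. Mapk13, a p38 kinase abundant in epithelia, had 13.7 to 109 FPKM in HO (median 25.8), against 127 to 248 FPKM in WT (median 176), a log2 fold change of -2.59 ± 0.239 (adjusted p = 4.72e-11). Map2k6, which activates p38, had 0.151 to 0.595 FPKM in HO (median 0.327), against 1.19 to 2.59 FPKM in WT (median 2.18), a log2 fold change of -1.604 ± 0.155 (adjusted p = 1.16e-10); both lay below all WT libraries. Of the AP-1 factors, Junb had 129.9 to 277 FPKM in HO (median 219), against 41.8 to 91.9 FPKM in WT (median 82.2), a log2 fold change of 1.65 ± 0.19 (adjusted p = 4.22e-09). Jund had 42.4 to 165 FPKM in HO (median 73.1), against 82.9 to 208.4 FPKM in WT (median 159.7), a log2 fold change of -0.82 ± 0.248 (adjusted p = 0.00386). Junb was higher without overlap and Jund lower with overlap. In the high Gm15564 set alone, Jund was at 42.4 to 69.4 FPKM in HO and 82.9 to 98.7 FPKM in WT. In the low set the groups overlapped through HO replicate 2. Dusp1, a phosphatase that switches JNK and p38 off, had 126 to 295 FPKM in HO (median 214), against 4.55 to 46.2 FPKM in WT (median 16.2), a log2 fold change of 3.57 ± 0.334 (adjusted p = 5.97e-11). Of all 23 genes of this arm, 13 were higher and 3 lower, against 33% and 38.4% of all genes.

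Genes of cell death moved both ways. Ripk3, the kinase of necroptosis, had 29 to 76.2 FPKM in HO (median 33.7), against 8.2 to 12.8 FPKM in WT (median 9.88), a log2 fold change of 1.82 ± 0.213 (adjusted p = 6.25e-09), with its highest value in HO replicate 2. Zbp1, a nucleic acid sensor that binds RIPK3, had 15.4 to 76 FPKM in HO (median 26.1), against 7.67 to 15.6 FPKM in WT (median 9.85), a log2 fold change of 1.38 ± 0.329 (adjusted p = 0.00043), and the executioner Mlkl had 7.77 to 16.3 FPKM in HO (median 11.6), against 4.97 to 7.91 FPKM in WT (median 6.54), a log2 fold change of 0.77 ± 0.212 (adjusted p = 0.00171), both with overlap. Casp8 was lower by little (log2 fold change -0.33 ± 0.138, adjusted p = 0.0329), a call that neither Gm15564 set gave alone and that was lost without any 1 of HO replicates 1, 3, 5, 7 and 9 or WT replicates 9 and 10. Cflar, the brake on caspase-8, was higher, with 9.14 to 21.5 FPKM in HO (median 15.3), against 3.93 to 7.83 FPKM in WT (median 5.57), a log2 fold change of 1.44 ± 0.2 (adjusted p = 1.52e-07). Of 11 inflammasome and gasdermin genes, 8 were lower and 2 higher, against 38.4% and 33% of all genes. Gsdmc4, a gasdermin of the colon epithelium, had 0.019 to 1.89 FPKM in HO (median 0.183), against 301 to 565 FPKM in WT (median 413), a log2 fold change of -9.04 ± 0.329 (adjusted p = 7.66e-20), and HO replicate 2, at 1.89 FPKM, was also below all WT libraries. Genes of the gasdermin C cluster are close copies, and their separate values are uncertain. Casp1, which matures interleukin 1 beta, had 18 to 31.4 FPKM in HO (median 28.3), against 76.9 to 109.9 FPKM in WT (median 98.7), a log2 fold change of -1.83 ± 0.129 (adjusted p = 1.68e-13), whereas Casp4, the sensor of cytosolic endotoxin, had 30.9 to 74.2 FPKM in HO (median 45.2), against 14.9 to 24.1 FPKM in WT (median 21.4), a log2 fold change of 1.201 ± 0.164 (adjusted p = 1.07e-07). Nlrp3, the inflammasome sensor of myeloid cells, had 8.81 to 21.8 FPKM in HO (median 15.2), against 0.027 to 0.289 FPKM in WT (median 0.132), a log2 fold change of 4.55 ± 0.406 (adjusted p = 2.19e-11).

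The genes that hold the epithelial layer together were lower throughout. All 28 genes of junctions and simple keratins were lower (median -4.32, and -4.78 without HO replicate 2). Of these, 11 lay wholly below WT, where 15.9% of all genes did. HO replicate 2 was below all WT libraries in 11 of the genes and above all of them in 7. Epcam, an adhesion protein of epithelial cells, had 0.646 to 543 FPKM in HO (median 14.6), against 765 to 1033 FPKM in WT (median 825), a log2 fold change of -5.597 ± 0.639 (adjusted p = 3.62e-09). The 9 other HO libraries lay at 0.646 to 103 FPKM and HO replicate 2 at 543 FPKM. Krt8, of the epithelial cytoskeleton, had 2.07 to 2298 FPKM in HO (median 38.9), against 1858 to 2935 FPKM in WT (median 2754), a log2 fold change of -5.53 ± 0.671 (adjusted p = 1.20e-08). Cldn7, a claudin of the tight junction, had 0.358 to 602 FPKM in HO (median 9.79), against 319 to 529 FPKM in WT (median 443), a log2 fold change of -4.97 ± 0.666 (adjusted p = 8.02e-08); in both, HO replicate 2 lay within the WT range or above it. The other 9 HO libraries were far apart among themselves, with 2.07 to 345 FPKM of Krt8, against 1858 to 2935 FPKM in WT. The summed neutrophil and macrophage levels given above moved opposite to these genes and to the epithelial groups that follow, and their part was not tested.

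Transcription factors of the colon epithelium were lower too. All 15 tested genes of colonic identity were lower (median -4.65; -4.996 without HO replicate 2), 12 of them without overlap, where 15.9% of all genes lay wholly below. Elf3, an epithelial factor, had 0.309 to 201 FPKM in HO (median 3.75), against 257 to 333 FPKM in WT (median 291), a log2 fold change of -5.64 ± 0.614 (adjusted p = 1.43e-09). Cdx1, which sets intestinal fate, had 0 to 82.5 FPKM in HO (median 2.84), against 165 to 288 FPKM in WT (median 209), a log2 fold change of -5.78 ± 0.626 (adjusted p = 1.25e-09). In HO replicate 2, Elf3 was at 201 and Cdx1 at 82.5 FPKM, below all WT libraries although its Krt8 was within the WT range. Atoh1, the master factor of secretory cells, had 0 to 6.81 FPKM in HO (median 0.0446), against 16.8 to 27.2 FPKM in WT (median 21.4), a log2 fold change of -4.94 ± 0.475 (adjusted p = 1.03e-10).

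Genes for absorbing salt and water fell as well. Of 27 tested, 25 were lower and 1 higher (median -4.52), and 21 lay wholly below WT. Aqp8, a water channel of surface colonocytes, was listed at 0 in 7 of 10 HO libraries and had 0 to 14.2 FPKM in HO (median 0), against 243 to 862 FPKM in WT (median 573), a log2 fold change of -9.49 ± 0.593 (adjusted p = 1.58e-14). Atp1b1, a subunit of the sodium pump, had 10.6 to 184 FPKM in HO (median 17.9), against 475 to 1223 FPKM in WT (median 622), a log2 fold change of -4.73 ± 0.356 (adjusted p = 6.47e-13). Car1, a carbonic anhydrase, was at 2476 FPKM in HO replicate 2, at 0.0399 to 25 FPKM in the other HO libraries and at 378 to 1673 FPKM in WT (log2 fold change -7.72 ± 0.955, adjusted p = 1.75e-08; -8.76 without HO replicate 2). Aqp8 in HO replicate 2 was at 14.2 FPKM, below all WT libraries, so in that library members of the same programme lay on both sides of the WT range. The exchanger Slc26a6, expressed outside the surface epithelium too, was the only one of the 27 called higher, with 1.29 to 2.86 FPKM in HO (median 1.8), against 0.434 to 1.15 FPKM in WT (median 0.643), a log2 fold change of 0.96 ± 0.135 (adjusted p = 2.03e-07).

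Carriers of nutrients moved both ways. Of 6 carriers of short-chain fatty acids and sugars, 3 were higher and 3 lower, against 33% and 38.4% of all genes. Of 6 amino acid carriers, 4 were higher and 2 lower, with no overlap for any of them. Slc1a5, which takes up glutamine, had 20.3 to 41.6 FPKM in HO (median 30.7), against 44.5 to 69.1 FPKM in WT (median 63.6), a log2 fold change of -1.02 ± 0.145 (adjusted p = 2.33e-07). Slc6a14, a broad carrier of the apical surface, had 0.0288 to 31 FPKM in HO (median 0.377), against 81.2 to 245 FPKM in WT (median 165), a log2 fold change of -6.73 ± 0.516 (adjusted p = 9.39e-13). Slc2a1, the glucose carrier of growing cells, had 54 to 161 FPKM in HO (median 74.4), against 32.9 to 60.0 FPKM in WT (median 44.2), a log2 fold change of 0.87 ± 0.164 (adjusted p = 2.42e-05). The 4 amino acid carriers that were higher were Slc7a5 (log2 fold change 1.51), Slc7a11 (log2 fold change 4.83), Slc3a2 (log2 fold change 1.86) and Slc7a8 (log2 fold change 1.69). All 6 efflux and bile acid carriers tested were lower (median -3.47; -3.91 without HO replicate 2). The drug pump Abcb1a had 2.14 to 23.4 FPKM in HO (median 2.59), against 67 to 165 FPKM in WT (median 111), a log2 fold change of -4.82 ± 0.416 (adjusted p = 1.14e-11).

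Mucus genes fell too. Of 22 tested, 21 were lower and 1 did not pass (median -3.59). Without HO replicate 2 all 22 were lower, with a median of -4.20. Zg16, a lectin of the mucus that binds bacterial walls, had 0 to 1128 FPKM in HO (median 0.447), against 1877 to 4535 FPKM in WT (median 2731), a log2 fold change of -10.26 ± 0.892 (adjusted p = 1.29e-11), with 1128 FPKM in HO replicate 2 and at most 15.3 FPKM in the others. Sycn, a secretory granule protein, had 0 to 25.6 FPKM in HO (median 0.0524), against 875 to 2577 FPKM in WT (median 1991), a log2 fold change of -10.75 ± 0.805 (adjusted p = 5.80e-13). The membrane mucin Muc13 had 0.404 to 442 FPKM in HO (median 7.33), against 609 to 910.0 FPKM in WT (median 823), a log2 fold change of -6.05 ± 0.656 (adjusted p = 1.29e-09). The mucin backbone gene Muc2 had 0.0274 to 81.8 FPKM in HO (median 0.151), against 34.9 to 133 FPKM in WT (median 59.2), a log2 fold change of -5.66 ± 0.587 (adjusted p = 5.27e-10). All 3 of Zg16, Sycn and Muc13 lay wholly below WT, and Muc2 did so without HO replicate 2. Enzymes that build the sugar chains of mucins were lower as well (median -2.48, 10 of 10 lower): C1galt1c1, the chaperone of the core enzyme in all cells, had 15.7 to 22.8 FPKM in HO (median 19.1), against 26.1 to 43.7 FPKM in WT (median 33.4), a log2 fold change of -0.82 ± 0.119 (adjusted p = 2.91e-07).

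Most secreted defence proteins of the epithelium were lower and most acute phase proteins higher. Of 10 lectins and peptides listed, 6 were tested, 5 were lower and 1 was not called. Their summed level was 2.48 to 14456 FPKM in HO and 11969 to 15527 FPKM in WT. The highest HO sum was that of HO replicate 2, within the WT range and mostly Reg3b and Reg3g, and the other 9 HO libraries reached at most 358 FPKM. Lypd8, which keeps flagellated bacteria off the epithelium, had the highest median of any listed gene tested in WT, with 1.8 to 2915 FPKM in HO (median 26.6), against 9003 to 13313 FPKM in WT (median 11026), a log2 fold change of -7.96 ± 0.737 (adjusted p = 4.85e-11). Mptx1, a pentraxin, had 0 to 5.19 FPKM in HO (median 0.0949), against 1361 to 3968 FPKM in WT (median 2291), a log2 fold change of -11.58 ± 0.612 (adjusted p = 4.84e-16), with 0 in HO replicate 2. Pigr, which carries IgA through the epithelium, had 0.101 to 114 FPKM in HO (median 1.04), against 639 to 1230.5 FPKM in WT (median 919.5), a log2 fold change of -8.09 ± 0.712 (adjusted p = 1.67e-11). On the other side, 7 of 9 acute phase and iron-binding genes were higher (median 6.88), and 6 of the 8 still tested without HO replicate 2. Under 1 FPKM in every WT library were 2 of the 9. Saa3, a serum amyloid A, had 16458 to 51672 FPKM in HO (median 38346), against 0.0947 to 13.1 FPKM in WT (median 1.07), a log2 fold change of 13.97 ± 0.909 (adjusted p = 3.42e-14), the highest median of any listed gene tested in HO. Saa1 went the other way, with 30.7 to 106 FPKM in HO (median 74.8), against 1403 to 3235 FPKM in WT (median 2048), a log2 fold change of -5.01 ± 0.408 (adjusted p = 3.46e-12); the groups did not overlap for either gene. Saa1 and Saa2 are near-identical, and their separate values are uncertain. Lcn2, which binds the iron carriers of bacteria, had 2918 to 7880.4 FPKM in HO (median 5619), against 2.28 to 7.07 FPKM in WT (median 4.17), a log2 fold change of 10.24 ± 0.568 (adjusted p = 1.35e-15), and the iron exporter Slc40a1 had 5.23 to 14.3 FPKM in HO (median 7.39), against 53.8 to 102 FPKM in WT (median 80.2), a log2 fold change of -3.16 ± 0.328 (adjusted p = 5.20e-10).

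Protease inhibitors moved both ways. Serpina3n, an acute phase inhibitor of serine proteases, had 466 to 1087 FPKM in HO (median 749), against 5.41 to 16.6 FPKM in WT (median 8.36), a log2 fold change of 6.21 ± 0.448 (adjusted p = 2.90e-13). Wfdc17, a myeloid inhibitor, had 186 to 1208 FPKM in HO (median 681), against 9.1 to 20.6 FPKM in WT (median 15.5), a log2 fold change of 5.32 ± 0.314 (adjusted p = 5.14e-15). Serpinb1a, an inhibitor of neutrophil elastase, had 18.3 to 176 FPKM in HO (median 34.9), against 208.1 to 333 FPKM in WT (median 240.4), a log2 fold change of -2.75 ± 0.251 (adjusted p = 3.60e-11), with the highest HO value in replicate 2 (176 FPKM). Of the 10 inhibitors, 8 were higher and 1 lower, and 6 of the 8 still tested without HO replicate 2 were higher. Under 1 FPKM in every WT library were 5 of the 10, which could be tested only because they were high elsewhere. Of 13 genes of antibody transport and complement, 11 were higher; Serping1, the C1 inhibitor, had 244 to 533 FPKM in HO (median 389.8), against 57.5 to 81.3 FPKM in WT (median 69.1), a log2 fold change of 2.53 ± 0.258 (adjusted p = 3.70e-10).

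**Figure D3:**
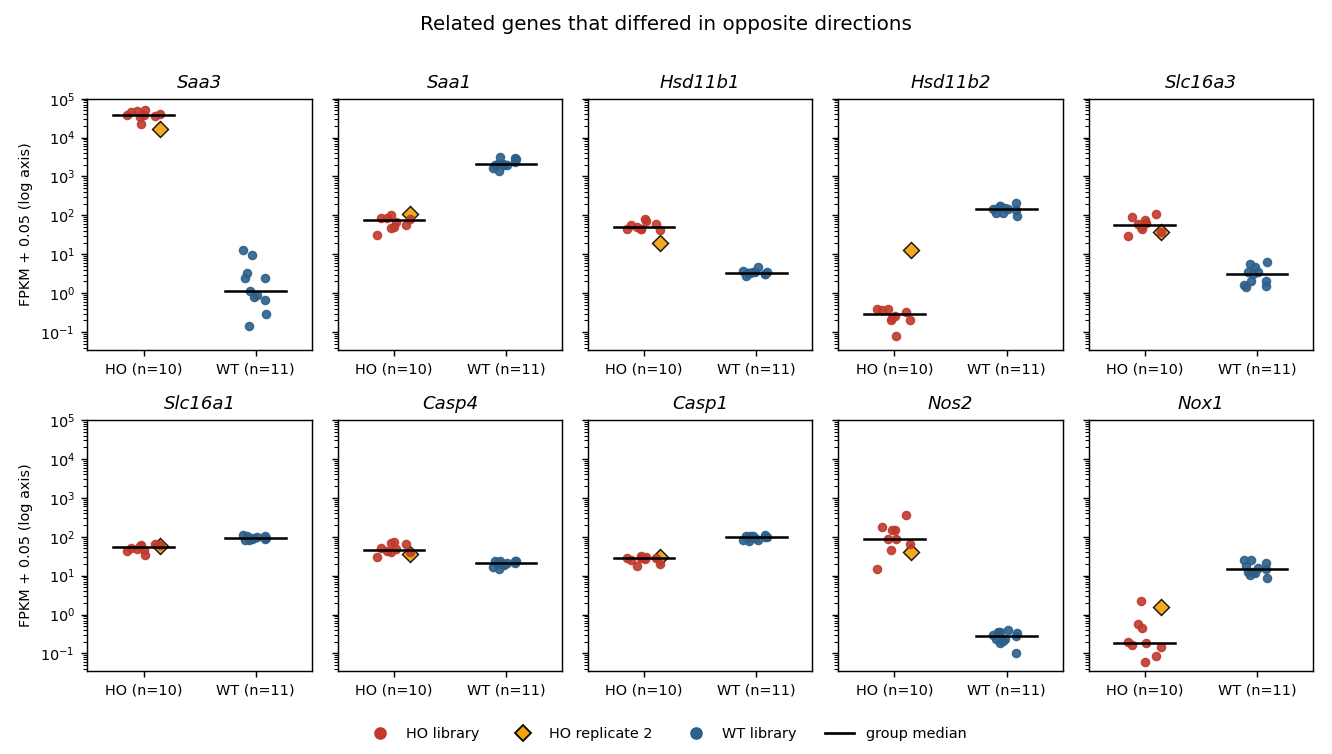
FPKM in each library on a log axis (0.05 added) for 5 pairs of related genes, HO left and WT right; the line is the group median and the diamond HO replicate 2. In each pair the first gene was higher in all HO libraries and the second lower: Saa3 and Saa1, Hsd11b1 and Hsd11b2, Slc16a3 and Slc16a1, Casp4 and Casp1, Nos2 and Nox1. The pairs were chosen with their values in view.

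Neutrophil genes were higher, with 1 exception. Of 23 tested, 22 were higher (median 5.88), 21 of them without overlap. Of those tested, 14 were under 1 FPKM in every WT library and so could be tested only because they were high elsewhere. S100a9, which pairs with S100a8 to form calprotectin, had 2257 to 27642 FPKM in HO (median 9042), against 0 to 4.99 FPKM in WT (median 0.998), a log2 fold change of 12.39 ± 0.941 (adjusted p = 7.85e-13). Chil3, a chitinase-like granule protein, had 769.7 to 3209 FPKM in HO (median 1949), against 0 to 0.468 FPKM in WT (median 0.238), a log2 fold change of 11.298 ± 0.615 (adjusted p = 9.17e-16). Mmp8, the neutrophil collagenase, had 44.3 to 671 FPKM in HO (median 273), against 0 to 0.0734 FPKM in WT (median 0), a log2 fold change of 8.79 ± 0.602 (adjusted p = 9.67e-14), with 6 WT libraries listed at 0. Of the 5 azurophil genes, which are transcribed mainly in immature neutrophils, only Prtn3 passed the filter, through libraries other than WT. With a filter of above 0 FPKM in 10 libraries, all 5 were tested and higher (median 1.11), on low values. Summed over the 5, the level was 6.24 to 40 FPKM in HO and 0.00736 to 0.201 FPKM in WT. Prtn3 had 5.07 to 32.3 FPKM in HO (median 16.2), against 0 to 0.142 FPKM in WT (median 0.0517). Ly6g, the surface antigen used to sort neutrophils, went against its group, with 9.73 to 489 FPKM in HO (median 40.6), against 139 to 331 FPKM in WT (median 217), a log2 fold change of -2.07 ± 0.424 (adjusted p = 6.66e-05); it lies in a cluster of close copies and its value is uncertain.

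Monocyte genes of recruited cells were higher in all 12 tested (median 5.17), every one without overlap, and 4 of them were under 1 FPKM in every WT library. Arg1, an enzyme that uses up arginine, had 66.1 to 712 FPKM in HO (median 406), against 0.0526 to 0.725 FPKM in WT (median 0.298), a log2 fold change of 8.75 ± 0.363 (adjusted p = 1.70e-18). Thbs1, a matrix glycoprotein, had 148 to 594 FPKM in HO (median 227), against 5.78 to 22.4 FPKM in WT (median 8.05), a log2 fold change of 4.85 ± 0.4663 (adjusted p = 1.08e-10). Of 8 genes of resident macrophages, 5 were higher (median 1.05; 6 without HO replicate 2) and 1 lower. Csf1r, the receptor macrophages live on, had 62.9 to 172 FPKM in HO (median 135), against 7 to 13.1 FPKM in WT (median 10.2), a log2 fold change of 3.63 ± 0.276 (adjusted p = 7.92e-13). Cx3cr1, the receptor of resident gut macrophages, had 0.13 to 3.58 FPKM in HO (median 1.24), against 1.45 to 3.38 FPKM in WT (median 2.4), a log2 fold change of -0.85 ± 0.214 (adjusted p = 0.000744), so it went against Csf1r, with overlap of the groups.

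The signals that recruit these cells rose with them. All 8 CXC chemokines tested were higher (median 5.41), 3 of them under 1 FPKM in every WT library. Without HO replicate 2 all 7 still tested were higher (median 7.75). Cxcl1 had 105 to 1061 FPKM in HO (median 352), against 0.0263 to 1.89 FPKM in WT (median 0.721), a log2 fold change of 8.204 ± 0.729 (adjusted p = 2.06e-11). Cxcl2 had 103 to 1057 FPKM in HO (median 295), against 0 to 0.241 FPKM in WT (median 0.0239), a log2 fold change of 8.997 ± 0.778 (adjusted p = 1.17e-11); both attract neutrophils. Cxcl3, shown above for its promoter, had 17.2 to 626 FPKM in HO (median 121), against 0 to 0.0246 FPKM in WT (median 0), with 9 of 11 WT libraries listed at 0. Of the CC chemokines, 10 of 13 were higher, and 3 of the 13 were under 1 FPKM in every WT library. Ccl5, which draws T cells and monocytes, had 51.1 to 1046 FPKM in HO (median 405), against 1.13 to 11.2 FPKM in WT (median 5.04), a log2 fold change of 6.38 ± 0.488 (adjusted p = 8.97e-13) and its lowest HO value in replicate 2. Ccl28, by which the colon epithelium draws IgA-producing cells, had 0.0177 to 0.994 FPKM in HO (median 0.0824), against 23.5 to 65.6 FPKM in WT (median 37.6), a log2 fold change of -5.698 ± 0.343 (adjusted p = 7.79e-15), lower in every HO library than in any WT library. Ccr1, a receptor of neutrophils and monocytes, had 40.7 to 160.3 FPKM in HO (median 77.2), against 1.6 to 3.16 FPKM in WT (median 2.43), a log2 fold change of 4.76 ± 0.385 (adjusted p = 2.92e-12).

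Cytokine genes near 0 in WT were abundant in HO. Tnf had 9.64 to 56.7 FPKM in HO (median 17.9), against 0.0912 to 1.17 FPKM in WT (median 0.591), a log2 fold change of 4.198 ± 0.524 (adjusted p = 2.10e-08). Il1b had 220.1 to 589 FPKM in HO (median 336), against 0.175 to 2.29 FPKM in WT (median 0.49), a log2 fold change of 8.28 ± 0.723 (adjusted p = 1.38e-11). Il6 had 17.2 to 425 FPKM in HO (median 87.5), against 0 to 0.178 FPKM in WT (median 0.0263), a log2 fold change of 7.44 ± 0.752 (adjusted p = 3.08e-10). Csf3, the growth factor of neutrophils, had 79.5 to 374 FPKM in HO (median 145), against 0 to 0.0539 FPKM in WT (median 0), with 8 WT libraries listed at 0. Socs3, which interleukin 6 induces and which dampens its receptor, had 190.3 to 406 FPKM in HO (median 258), against 2.34 to 12.4 FPKM in WT (median 4), a log2 fold change of 5.75 ± 0.397 (adjusted p = 1.11e-13). In every one of these 5 genes all HO libraries, replicate 2 included, lay above all WT libraries. Of 26 cytokine and receptor genes tested, 23 were higher, and 8 of those tested were under 1 FPKM in every WT library. Of the 12 genes listed for the interleukin 17, 22, 23 and 10 families, 7 did not reach the filter on low values and were not tested. With a filter of above 0 FPKM in 10 libraries, 9 of the 12 were higher and 2 lower (median 1.02).

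Enzymes of arginine and polyamines were mixed, 6 of 10 higher and 2 lower, against 33% and 38.4% of all genes. Sat1, which breaks polyamines down, had 119 to 355 FPKM in HO (median 210.1), against 90.4 to 158 FPKM in WT (median 105), a log2 fold change of 0.84 ± 0.171 (adjusted p = 6.49e-05). Azin1, which favours their synthesis, had 10.5 to 18.6 FPKM in HO (median 15.6), against 16 to 29.1 FPKM in WT (median 22.3), a log2 fold change of -0.57 ± 0.119 (adjusted p = 8.34e-05). Oxidases of phagocytes and of epithelium moved apart. Cyba, a subunit of the phagocyte oxidase, had 361 to 722 FPKM in HO (median 536), against 69.1 to 129.7 FPKM in WT (median 99.8), a log2 fold change of 2.47 ± 0.145 (adjusted p = 4.42e-15). Ncf1, another subunit, had 47.2 to 206 FPKM in HO (median 117), against 1.44 to 5.5 FPKM in WT (median 3.32), a log2 fold change of 4.93 ± 0.363 (adjusted p = 4.17e-13). Nox1, the oxidase of colon epithelium, had 0.00854 to 2.23 FPKM in HO (median 0.141), against 8.88 to 25.4 FPKM in WT (median 14.5), a log2 fold change of -4.19 ± 0.321 (adjusted p = 9.27e-13). Nos2, the inducible nitric oxide synthase, had 15.1 to 365 FPKM in HO (median 89.6), against 0.0543 to 0.35 FPKM in WT (median 0.236), a log2 fold change of 6.92 ± 0.64 (adjusted p = 4.78e-11). The metal-binding protein Mt2 had 2113 to 4259 FPKM in HO (median 3133), against 37.3 to 307 FPKM in WT (median 52.6), a log2 fold change of 5.64 ± 0.391 (adjusted p = 1.18e-13).

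Among prostanoid enzymes, Ptges, which makes prostaglandin E, had 46.1 to 168 FPKM in HO (median 82.9), against 1.86 to 4.99 FPKM in WT (median 3.53), a log2 fold change of 4.505 ± 0.403 (adjusted p = 2.31e-11). Hpgd, which breaks it down, had 1.91 to 7.87 FPKM in HO (median 4.09), against 86.4 to 167 FPKM in WT (median 110.2), a log2 fold change of -4.65 ± 0.323 (adjusted p = 1.26e-13). The groups did not overlap for either gene. Over the list, 6 of 9 synthesis genes were higher and 1 lower, against 33% and 38.4% of all genes. The lower one was Hpgds, a prostaglandin D synthase (log2 fold change -0.69 ± 0.188, adjusted p = 0.00161). Of 6 genes of breakdown and receptors, 3 were lower, a share near that of all genes, and 1 was higher, the prostaglandin E receptor Ptger2 (log2 fold change 1.97 ± 0.158, adjusted p = 2.33e-12).

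Of the interferon-induced genes, 13 of 19 tested were higher (median 1.46), and 3 of the 19 were under 1 FPKM in every WT library. Gbp2, a GTPase that attacks vacuoles, had 81.5 to 527 FPKM in HO (median 117), against 14.1 to 30.4 FPKM in WT (median 19.4), a log2 fold change of 3.005 ± 0.484 (adjusted p = 2.02e-06). Acod1, which makes itaconate in macrophages, had 46 to 334 FPKM in HO (median 161), against 0 to 0.397 FPKM in WT (median 0.0995), a log2 fold change of 7.97 ± 0.698 (adjusted p = 1.50e-11). Irf1 was higher by little (log2 fold change 0.46 ± 0.197, adjusted p = 0.0394), a call that neither Gm15564 set gave alone. It was also lost in the rescaled values and without any 1 of HO replicates 1, 6 and 7 or WT replicates 4, 8, 9 and 11. Ifih1, a sensor of viral RNA, was lower, with 4.77 to 9.91 FPKM in HO (median 6.11), against 11.7 to 20.1 FPKM in WT (median 15), a log2 fold change of -1.12 ± 0.135 (adjusted p = 1.13e-08), and so was Oas1a (-1.38). B2m, the light chain of MHC class I, had 935 to 5572 FPKM in HO (median 2884), against 336 to 913 FPKM in WT (median 538), a log2 fold change of 2.31 ± 0.335 (adjusted p = 3.32e-07). Cd74, the chaperone of MHC class II, had 213 to 1400.1 FPKM in HO (median 436), against 156 to 357 FPKM in WT (median 249), a log2 fold change of 0.98 ± 0.273 (adjusted p = 0.00197), with overlap.

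Lymphocyte genes were mixed. Of 6 tested T cell genes, 4 were higher (5 without HO replicate 2), where 33% of all genes were higher. Under 1 FPKM in every WT library were 2 of the 6, Il7r among them, which passed the filter only through other libraries. Cd8a, Cd8b1, Cd5, Foxp3 and Tcf7 did not reach the filter. With a filter of above 0 FPKM in 10 libraries, 5 of 11 were higher (median 0.46). Il7r had 1.02 to 16.6 FPKM in HO (median 4.99), against 0.254 to 0.838 FPKM in WT (median 0.454), a log2 fold change of 2.35 ± 0.371 (adjusted p = 1.46e-06). Of 9 B cell and follicle genes, 1 was higher and 3 were lower, against 33% and 38.4% of all genes. The one that rose was the follicle chemokine Cxcl13, with 147 to 1207 FPKM in HO (median 469), against 4.46 to 15.4 FPKM in WT (median 9.47), a log2 fold change of 5.57 ± 0.47 (adjusted p = 6.94e-12), while Cd79a, of the B cell receptor, varied from 0.713 to 72.1 FPKM in HO and from 3.57 to 39.1 in WT and was not called (log2 fold change -0.79 ± 0.534, adjusted p = 0.189), although it was without HO replicate 6.

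Of 6 plasma cell genes, 2 were higher and 2 lower, shares near the 33% and 38.4% of all genes. Xbp1, a factor of secretory cells of many kinds, had 118 to 206 FPKM in HO (median 146), against 78 to 118 FPKM in WT (median 104), a log2 fold change of 0.596 ± 0.0855 (adjusted p = 2.73e-07).

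Most matrix and vessel genes were higher and muscle genes lower. Of 47 matrix and proteolysis genes, 41 were higher and 2 lower, and 39 of the 46 still tested without HO replicate 2 were higher. Under 1 FPKM in every WT library were 4 of the 47. Col4a1, of basement membranes, had 199 to 413 FPKM in HO (median 329.7), against 26.3 to 53 FPKM in WT (median 36.2), a log2 fold change of 3.07 ± 0.265 (adjusted p = 1.17e-11) without overlap, and Col3a1, of fibrils, had 194 to 1092 FPKM in HO (median 679.8), against 157 to 327 FPKM in WT (median 196), a log2 fold change of 1.397 ± 0.278 (adjusted p = 4.70e-05) with overlap. Mmp3, stromelysin, had 87.3 to 3005 FPKM in HO (median 804), against 0.161 to 4.39 FPKM in WT (median 0.738), a log2 fold change of 9.15 ± 0.822 (adjusted p = 2.54e-11). Postn, periostin, was lower, with 61.2 to 125 FPKM in HO (median 106), against 99.4 to 226 FPKM in WT (median 142), a log2 fold change of -0.65 ± 0.166 (adjusted p = 0.00084), against most of its group, and not called in the low Gm15564 set alone. Of 13 endothelial genes, 11 were higher (median 2.76), and all 13 were without HO replicate 2. Under 1 FPKM in every WT library were 2 of the 13. Selp, by which vessels catch leukocytes, had 69.2 to 231 FPKM in HO (median 146), against 0.151 to 1.21 FPKM in WT (median 0.608), a log2 fold change of 6.88 ± 0.468 (adjusted p = 8.33e-14). All 10 smooth muscle genes were lower (median -1.51): Actg2 had 90.8 to 702 FPKM in HO (median 249), against 631 to 2582 FPKM in WT (median 1069), a log2 fold change of -2.47 ± 0.402 (adjusted p = 2.43e-06). Ano1, the chloride channel of pacemaker cells, which epithelium also expresses, had 1.73 to 3.96 FPKM in HO (median 2.54), against 26.4 to 47.8 FPKM in WT (median 34.3), a log2 fold change of -3.56 ± 0.174 (adjusted p = 9.57e-17). All 4 hemoglobin and red cell genes tested were higher (median 2.16), and the part of blood in the samples was not tested. Vip, a peptide of enteric neurons, had 70.3 to 342 FPKM in HO (median 158), against 12.4 to 36.3 FPKM in WT (median 28.3), a log2 fold change of 2.65 ± 0.253 (adjusted p = 8.97e-11). Summed smooth muscle level was 727 to 3070.1 FPKM in HO and 2516 to 8533 FPKM in WT, and summed neuronal level 253 to 579 FPKM in HO and 45.7 to 171 FPKM in WT; how the share of the wall in each piece bears on these was not tested.

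Growth signals of the crypt and of its neighbours moved both ways. Among 13 stem cell and Wnt target genes, 9 were lower and 2 higher, against 38.4% and 33% of all genes. One of the 2 that rose was Cd44, an adhesion receptor that leukocytes carry too, with 35.3 to 119 FPKM in HO (median 72.4), against 3.84 to 13 FPKM in WT (median 6.69), a log2 fold change of 3.35 ± 0.326 (adjusted p = 1.42e-10). The other was Olfm4, a marker of stem cells in the small intestine and a granule protein of neutrophils, with 2.97 to 44.1 FPKM in HO (median 19.9), against 0 to 0.137 FPKM in WT (median 0), a log2 fold change of 4.89 ± 0.363 (adjusted p = 5.13e-13). Of 35 stromal niche signals, 20 were higher, 8 lower and 7 not called (median 0.72). Of 15 growth factors among them, 8 were higher and 4 lower, again against 33% and 38.4% of all genes. The BMP inhibitor Grem1 had 36.7 to 235 FPKM in HO (median 148), against 6.4 to 19.8 FPKM in WT (median 16.2), a log2 fold change of 3.43 ± 0.452 (adjusted p = 5.76e-08). The EGF receptor ligand Ereg had 24.1 to 197 FPKM in HO (median 81.1), against 0.883 to 3.09 FPKM in WT (median 1.58), a log2 fold change of 5.004 ± 0.655 (adjusted p = 5.06e-08). Tgfa, another ligand, had 0.332 to 6.47 FPKM in HO (median 0.603), against 2.57 to 5.44 FPKM in WT (median 4.29), a log2 fold change of -1.79 ± 0.25 (adjusted p = 1.78e-07) with its highest HO value in replicate 2. Ly6a, the Sca-1 antigen of regenerating crypts, also present on endothelium and lymphocytes, had 499.6 to 1526 FPKM in HO (median 675), against 210.1 to 429 FPKM in WT (median 288), a log2 fold change of 1.34 ± 0.21 (adjusted p = 1.23e-06).

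Hormone cells did not move as one. Pyy, the peptide of L cells, had 0.68 to 86.3 FPKM in HO (median 9.92), against 123 to 296 FPKM in WT (median 206), a log2 fold change of -4.35 ± 0.525 (adjusted p = 1.10e-08), whereas somatostatin, Sst, which enteric neurons make too, had 13.6 to 77.3 FPKM in HO (median 27.9), against 4.19 to 19.7 FPKM in WT (median 11.3), a log2 fold change of 1.37 ± 0.289 (adjusted p = 9.91e-05). Of 10 hormone cell genes, 7 were lower and 2 higher, against 38.4% and 33% of all genes. Of 4 tuft cell genes tested, 3 were higher, led by Alox5, which leukocytes express as well. Alox5 had 3.51 to 22 FPKM in HO (median 9.64), against 0.558 to 1.15 FPKM in WT (median 0.75), a log2 fold change of 2.88 ± 0.216 (adjusted p = 6.24e-13). The other 4 of the 8 listed did not reach the filter. Among them, Trpm5 and Il25 were at 0 in 5 or more HO libraries. With a filter of above 0 FPKM in 10 libraries, 4 of the 8 were higher and 2 lower, so the role cannot be read as a rise.

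Respiratory and cholesterol genes were lower. Of 20 nuclear genes of the respiratory chain, 19 were lower (median -1.10). Atp5b, of the ATP synthase, had 284 to 700.0 FPKM in HO (median 416), against 814 to 1212 FPKM in WT (median 1016), a log2 fold change of -1.25 ± 0.136 (adjusted p = 1.27e-09). All 13 cholesterol synthesis genes were lower (median -1.35), where 38.4% of all genes were lower. Of the 13, 3 lay wholly below WT, where 15.9% of all genes did. Hmgcs1 had 13 to 45.1 FPKM in HO (median 17.7), against 41 to 98.9 FPKM in WT (median 64.6), a log2 fold change of -1.76 ± 0.192 (adjusted p = 1.48e-09). HO replicate 2 lay within the WT range of Hmgcs1 at 45.1 FPKM. Of 17 genes of glycolysis and the hypoxia response, 8 were higher and 2 lower, with 7 not called (median 0.19), where 33% of all genes were higher. The enolase Eno1 had 306 to 695 FPKM in HO (median 554), against 172 to 338 FPKM in WT (median 253), a log2 fold change of 1.09 ± 0.145 (adjusted p = 7.48e-08). Slc16a1, which carries butyrate and lactate, had 33 to 66.7 FPKM in HO (median 54.9), against 83.9 to 112 FPKM in WT (median 93.8), a log2 fold change of -0.86 ± 0.124 (adjusted p = 2.75e-07). Slc16a3, which exports lactate, had 29.5 to 111 FPKM in HO (median 55.5), against 1.36 to 6.24 FPKM in WT (median 3.12), a log2 fold change of 4.06 ± 0.342 (adjusted p = 6.87e-12), neither with overlap.

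Detoxification genes fell. All 11 phase I genes were lower (median -4.09; -4.42 without HO replicate 2), and 9 of 10 phase II genes. Adh1, an alcohol and retinol dehydrogenase, had 12.6 to 43.2 FPKM in HO (median 32.4), against 932 to 1483 FPKM in WT (median 1242), a log2 fold change of -5.504 ± 0.492 (adjusted p = 2.31e-11), with 32.6 FPKM in HO replicate 2, below all WT libraries. Hsd11b2, which inactivates glucocorticoids in colonocytes, had 0.0316 to 12.6 FPKM in HO (median 0.248), against 93.7 to 209 FPKM in WT (median 146), a log2 fold change of -7.22 ± 0.697 (adjusted p = 1.16e-10). Hsd11b1, which activates them, had 19.4 to 79.6 FPKM in HO (median 48.8), against 2.63 to 4.65 FPKM in WT (median 3.33), a log2 fold change of 3.68 ± 0.236 (adjusted p = 2.83e-14). Fkbp5, a gene that glucocorticoids induce, had 52.2 to 98.3 FPKM in HO (median 78.2), against 10.7 to 21 FPKM in WT (median 14.8), a log2 fold change of 2.32 ± 0.213 (adjusted p = 4.08e-11).

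Genes of protein synthesis were near the WT level. Of 30 ribosomal protein genes, 11 were lower and the rest not called (median -0.23), where 38.4% of all genes were lower. None separated the groups. With libraries rescaled to the same sum, 21 were called lower. Hspa5, a chaperone of the endoplasmic reticulum, was higher, with 211 to 565 FPKM in HO (median 272), against 132 to 295 FPKM in WT (median 178), a log2 fold change of 0.71 ± 0.182 (adjusted p = 0.00086). Ern2, the stress sensor of goblet cells, was lower, with 0 to 3.92 FPKM in HO (median 0.0448), against 7.62 to 17 FPKM in WT (median 10.7), a log2 fold change of -4.08 ± 0.346 (adjusted p = 7.79e-12). Of 12 genes of G2 and mitosis, 11 were lower (median -0.95), none without overlap. Within the sets divided by Gm15564, 10 were called lower in the low set and 3 in the high set, while the medians were -0.82 and -1.02, so the fall was no smaller where fewer genes were called. All 12 were lower without HO replicate 2. Ccnd2, a cyclin of G1, had 6.71 to 14.5 FPKM in HO (median 10.1), against 31.9 to 52.4 FPKM in WT (median 44), a log2 fold change of -1.95 ± 0.126 (adjusted p = 2.95e-14) without overlap.

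Hox genes, which mark position along the gut, changed in both directions. Hoxb13, of the distal colon, had 0 to 19.4 FPKM in HO (median 0.592), against 314 to 493 FPKM in WT (median 413), a log2 fold change of -7.64 ± 0.533 (adjusted p = 1.41e-13). Hoxd13 had 0 to 20.9 FPKM in HO (median 8.47), against 39.2 to 85.3 FPKM in WT (median 63.6), a log2 fold change of -3.003 ± 0.431 (adjusted p = 2.75e-07); both were at 0 only in HO replicate 2. Hoxa13 had 0.351 to 5.84 FPKM in HO (median 3.71), against 13.5 to 25.8 FPKM in WT (median 18.4), a log2 fold change of -2.304 ± 0.244 (adjusted p = 8.10e-10), again lowest in HO replicate 2 (0.351 FPKM). Hoxa11 rose, with 9.13 to 19.4 FPKM in HO (median 13.9), against 2.15 to 4 FPKM in WT (median 3.2), a log2 fold change of 1.91 ± 0.139 (adjusted p = 3.22e-13). Of 17 Hox genes tested, 11 were lower and 5 higher, against 38.4% and 33% of all genes, so the share that rose was near that of all genes. Hoxd13 remained lower without HO replicate 2 (-2.57). Hox levels depend on where along the colon a piece was cut, and the labels give no position. Position and genotype therefore cannot be told apart in any HO library, replicate 2 included.

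Clock genes, which cycle over the day, divided the WT group itself. Dbp, an output of the clock, was at 0.905 to 4.21 FPKM in HO, at 1.08 to 2.2 FPKM in 4 WT libraries and at 51.4 to 87.9 FPKM in the other 7 (log2 fold change -2.73 ± 0.684, adjusted p = 0.000704), a difference not called in the low Gm15564 set alone. Nfil3, a factor opposed to Dbp, was at 19 to 39.9 FPKM in HO, at 1.55 to 2.99 FPKM in the same 4 WT libraries and at 0.27 to 1.31 FPKM in the other 7 (log2 fold change 4.38 ± 0.331, adjusted p = 7.32e-13). For Dbp the range of the HO libraries held that of the 4 WT libraries, while for Nfil3 they lay above both sets of WT libraries. Per3, of the core loop, had 0.232 to 0.963 FPKM in HO (median 0.488), against 1.44 to 7.5 FPKM in WT (median 5.33), a log2 fold change of -2.06 ± 0.283 (adjusted p = 1.29e-07), below all WT libraries. Of 14 clock genes, 10 were lower and 2 higher, against 38.4% and 33% of all genes. The hour of sampling is not given in the sources used here, so hour and genotype cannot be told apart.

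**Figure D4:**
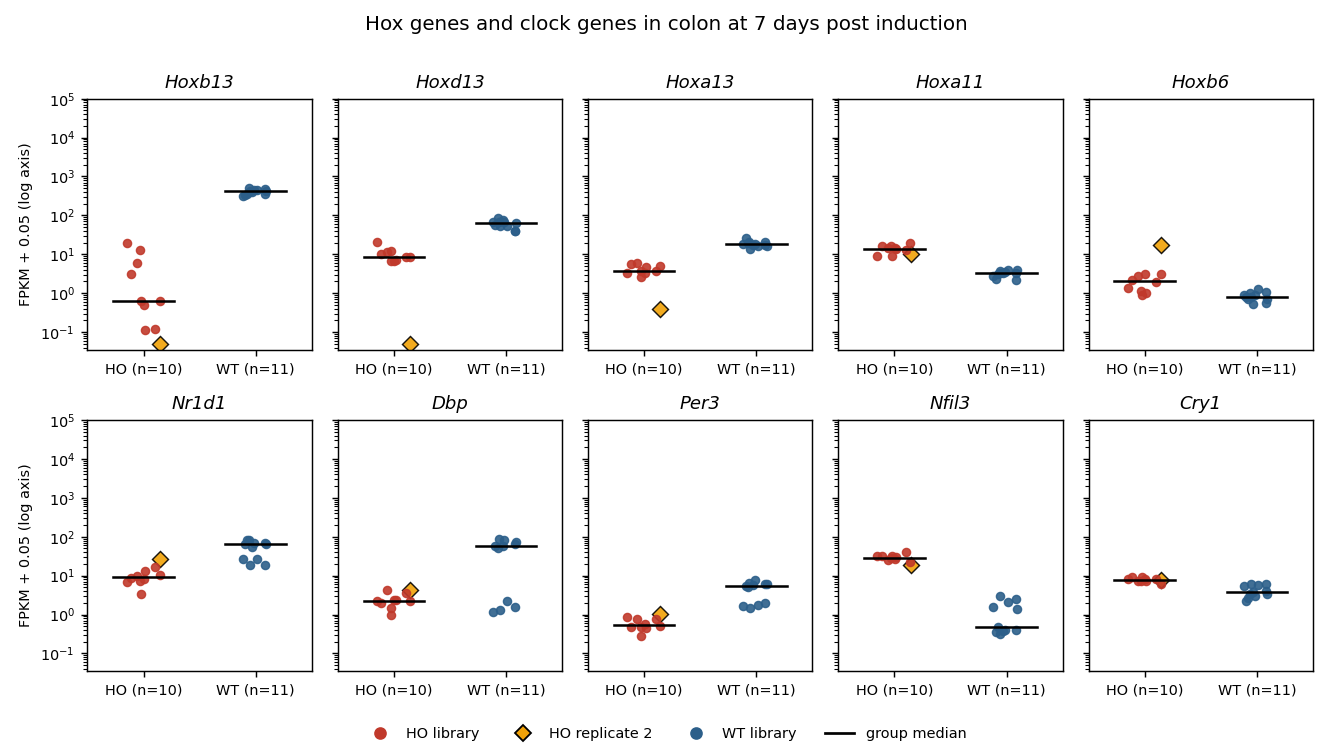
FPKM in each library on a log axis (0.05 added) for 5 Hox genes and 5 clock genes, HO left and WT right; the line is the group median and the diamond HO replicate 2. HO replicate 2 has 0 FPKM of Hoxb13 and Hoxd13 and 17.5 FPKM of Hoxb6, and Dbp divides the WT libraries into 4 low and 7 high ones.

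Outside the lists, the rises with the largest fold changes included myeloid and acute phase genes. Retnlg, a resistin-like protein of neutrophils, had 118 to 1715 FPKM in HO (median 521), against 0 to 0.197 FPKM in WT (median 0), a log2 fold change of 9.69 ± 0.821 (adjusted p = 7.76e-12), with 6 WT libraries listed at 0. Marco, a scavenger receptor of macrophages, had 75.2 to 293 FPKM in HO (median 170.0), against 0 to 0.203 FPKM in WT (median 0.0286), a log2 fold change of 8.18 ± 0.43 (adjusted p = 4.37e-16). Ptx3, a long pentraxin that binds microbes, had 53.9 to 129 FPKM in HO (median 89.8), against 0.013 to 0.13 FPKM in WT (median 0.0573), a log2 fold change of 7.26 ± 0.556 (adjusted p = 9.23e-13). The falls included genes of the epithelial surface. Klk1, tissue kallikrein, had 0 to 39 FPKM in HO (median 0.287), against 1055 to 1892 FPKM in WT (median 1145), a log2 fold change of -10.04 ± 0.701 (adjusted p = 1.43e-13). Tgm3, a transglutaminase, had 0.083 to 0.432 FPKM in HO (median 0.174), against 438 to 886 FPKM in WT (median 645), a log2 fold change of -9.83 ± 0.577 (adjusted p = 4.55e-15). B3gnt7, a glycosyltransferase, had 0.163 to 9.01 FPKM in HO (median 1.54), against 257 to 490.2 FPKM in WT (median 372), a log2 fold change of -7.31 ± 0.374 (adjusted p = 2.58e-16). All 6 separated the groups in every library. They were picked among the largest changes in these data, so that separation follows in part from the choice. Retnlg, Marco and Ptx3 were under 1 FPKM in every WT library and passed the filter only through other libraries.

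**Figure D5:**
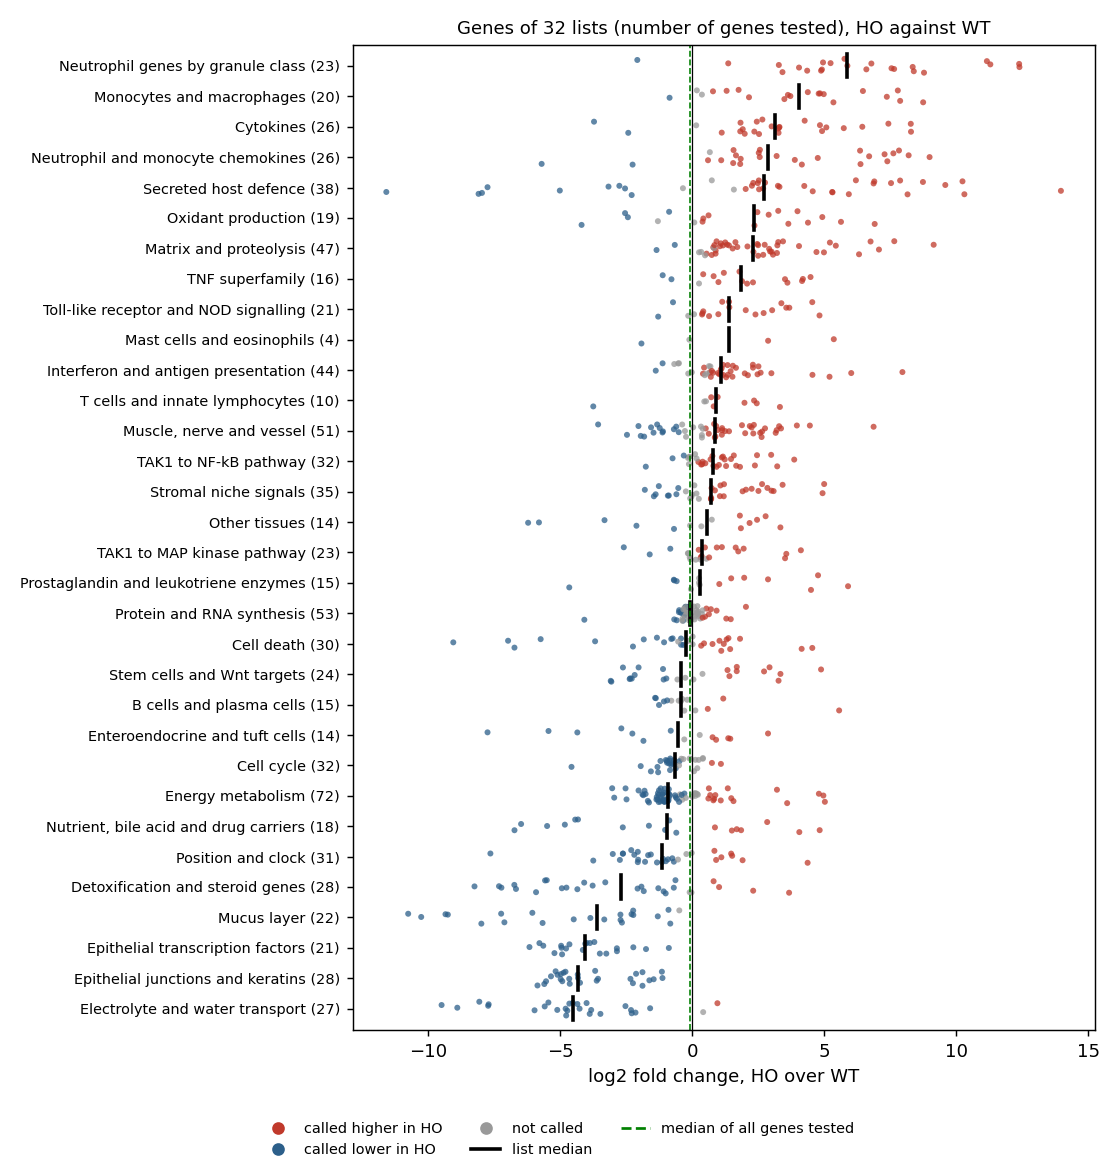
Log2 fold change, HO over WT, for each tested gene of 32 lists, ordered by the median (black bar); red was called higher in HO, blue lower and grey not called, and the dashed line is the median of all 12812 genes. Neutrophil genes (median 5.88) lie highest, genes of electrolyte transport (-4.52) lowest, and protein synthesis (-0.09) near the middle.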

How the data were processed

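RNA was measured by sequencing of 31 mouse colon libraries, of which 10 HO and 11 WT libraries were compared. The deposited values are FPKM, one per gene and library; per the submitters' processing notes the reads passed through fastp, HISAT2 and HTSeq on the mm10 build, with versions and gene models not given in the sources used here. Counts were not used. Depth was estimated as the total on which the most genes agreed, taking each gene's FPKM as 1 fragment over its RefSeq length. Per library 32 to 95 genes agreed on it, and 2 to 25 on the next most frequent value. The 25 was in HO replicate 1, against 43 genes on the total kept. At these depths 1 fragment in a gene of 1 kilobase is worth 0.0248 to 0.0325 FPKM, which limits low values. A gene was tested where at least 10 libraries reached 1 FPKM, which 12812 of 27623 genes did. log2(FPKM + 0.5) was fitted over the 31 libraries with limma 3.58.1 in R 4.3.3 (trend and robust settings), and the fit was tested on simulated data. Permutation tests used 100000 resamples in SciPy 1.17.1. HO and WT share no replicate numbers in the labels, and replicates are numbered in accession order. The members and lists were chosen with earlier results of these data known. Named genes are, per role of a list, drawn from the 2 with the highest mean, those called against the role's direction, Map3k7, Ripk1 and Tradd, and the 10 largest rises and falls outside the lists with a mean of at least 20.0 FPKM in either group. Tnfrsf1b, Tnfaip3, Cxcl3, Mlkl, Casp1, Casp4, Muc2, Slc40a1, Nos2, Slc16a3, Hsd11b1, Slc7a5, Slc7a11, Slc3a2, Slc7a8, Per3, Hoxa13, Hoxb6, Isx, Slc51a, Slc51b, Alpi, Reg3b and Vil1 were named after their values were seen. Promoters and names come from RefSeq (GRCm38.p6), with 26637 symbols matched. Alternatives were other pseudocounts, filters, scalings and variance settings, the HO and WT libraries alone, each Gm15564 set alone or as a term, and leaving out each library.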

Additional observations from a re-analysis of the deposited data

Results flagged for a closer look

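In the HO group of 10 libraries, single libraries stood apart from the others in 38 of 176 genes named, by the gap to the nearest library as a share of the range. Of these, 33 stood apart in HO replicate 2. Chance alone sets about 1 group in 20 apart in this way, a rate for normal values and for genes not chosen by their values. Several of the genes were named because of HO replicate 2, so the rate is no measure of the count. HO replicate 2 was the highest HO library with 14.17 FPKM of Slc26a3, 17.47 FPKM of Hoxb6, 8461 FPKM of Reg3b, 54.03 FPKM of Isx, 32.01 FPKM of Slc51a, 4.619 FPKM of Alpi and 2476 FPKM of Car1. It was also highest with 14.18 FPKM of Aqp8, 12.55 FPKM of Rbp2, 0.4782 FPKM of Apoa4, 59.22 FPKM of Tradd, 76.16 FPKM of Ripk3, 1.893 FPKM of Gsdmc4 and 6.81 FPKM of Atoh1. The highest HO values further included 31.05 FPKM of Slc6a14, 23.37 FPKM of Abcb1a, 1128 FPKM of Zg16, 25.56 FPKM of Sycn, 81.76 FPKM of Muc2, 176.1 FPKM of Serpinb1a and 6.469 FPKM of Tgfa. In the same direction it held 1526 FPKM of Ly6a, 45.09 FPKM of Hmgcs1, 12.61 FPKM of Hsd11b2, 3.915 FPKM of Ern2, 39.01 FPKM of Klk1 and 74.74 FPKM of Hadha. It was the lowest HO library with 21.57 FPKM of Irak3, 51.07 FPKM of Ccl5, 36.66 FPKM of Grem1, 19.38 FPKM of Hsd11b1, 0 FPKM of Hoxd13 and 0.351 FPKM of Hoxa13. Other HO libraries stood apart in single genes. Defa24 was at 0.06957 FPKM in HO replicate 10. Krt5 was at 0.3015 FPKM in HO replicate 5. Mptx1 was at 5.191 FPKM in HO replicate 10. Arg1 was at 66.13 FPKM in HO replicate 6. Cd74 was at 1400 FPKM in HO replicate 6. None of the tested genes named lost its call without HO replicate 2.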

How the results depend on the processing

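The counts of genes called, called higher and called lower kept within 1.5 times their values under all alternatives but 1: with a filter of above 0 FPKM in 10 libraries, 6388 genes were called higher. Genes whose HO and WT ranges did not overlap numbered 7132 in the high Gm15564 set alone and 6178 in the low set alone, where fewer libraries are compared, against 4103. Leaving out each of the 21 libraries in turn gave 8893 to 9142 genes called, 4024 to 4264 higher, 4747 to 4965 lower and 4072 to 4989 without overlap, the last without HO replicate 2, where the filter was applied again and left 12749 genes (5035 over the 12812). Rescaling to the same sum called 3575 higher and 5679 lower, 38.6% of called genes higher against 46.3%, and median scaling 49.9%. Of the genes named, Map3k7, Tab2 and Irf1 were not called when rescaled, Casp8 not with median scaling, Chuk, Ltb, Tnfsf10, Mcl1, Postn, Slc51b and Dbp not in the low set alone, and Casp8 and Irf1 in neither set alone nor without the single libraries given beside them. Acaa2 was not called without HO replicate 6, and Cd79a was called without HO replicate 6. The cause was not tested. No paired analysis was possible because HO and WT share no replicate numbers in the labels. Values near 1 fragment, such as those of genes listed at 0, are limited by depth.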

Other observations

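Heat shock, survival and glial genes stood outside the comparisons above. Of 8 heat shock genes tested, 3 were higher, a share near the 33% of all genes. Hspb1, a small chaperone, had 142 to 369 FPKM in HO (median 244), against 34.2 to 211 FPKM in WT (median 101), a log2 fold change of 1.47 ± 0.279 (adjusted p = 2.52e-05). Of 13 genes of the mitochondrial route of apoptosis, 6 were higher and 4 lower, against 33% and 38.4% of all genes. Mcl1, which keeps cells alive, had 56.6 to 119 FPKM in HO (median 92.3), against 45.3 to 81.7 FPKM in WT (median 65.6), a log2 fold change of 0.45 ± 0.131 (adjusted p = 0.00274), a call not made in the low Gm15564 set alone. Bax, which opens mitochondria, had 69.2 to 167 FPKM in HO (median 111), against 30.4 to 69.5 FPKM in WT (median 50.5), a log2 fold change of 1.11 ± 0.157 (adjusted p = 2.22e-07). Gfap, an intermediate filament of enteric glia, had 3.38 to 14.5 FPKM in HO (median 7.85), against 0.377 to 2.63 FPKM in WT (median 1.17), a log2 fold change of 2.19 ± 0.242 (adjusted p = 1.95e-09). Sox10, a factor of glia, had 2.77 to 6.08 FPKM in HO (median 4.37), against 0.983 to 4.31 FPKM in WT (median 2.28), a log2 fold change of 0.88 ± 0.208 (adjusted p = 0.000372).

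Genes that burn fat were lower in 10 of 12 tested (median -1.07), where 38.4% of all genes were lower. Hadha, of mitochondrial oxidation, had 40.8 to 74.7 FPKM in HO (median 47.1), against 91.1 to 127 FPKM in WT (median 97.1), a log2 fold change of -1.03 ± 0.0978 (adjusted p = 7.58e-11). Acaa2, the thiolase that ends each round, had 26 to 88 FPKM in HO (median 57.2), against 46 to 104 FPKM in WT (median 82.3), a log2 fold change of -0.65 ± 0.252 (adjusted p = 0.0233), not called without HO replicate 6. Across all genes, 791 had a median of at least 1 FPKM in HO and under 1 FPKM in WT, and 1287 the reverse.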
